A study of Mus musculus with 22 samples.

Results

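The keratin family was followed here as the 49 protein-coding genes whose symbol is Krt followed by digits alone, out of 54532 genes in each of 2 count tables from mouse retina and choroid. The rule used names only, not measured values. By this rule Krt6a, Krt6b, Krt33a and Krt33b, whose symbols end in a letter, and the pseudogenes Krt74 and Krt8-ps fell outside. Of the 49 members, 25 lay in 1 cluster on chromosome 11 (chr11:99232761-100269871, mm10 build) and 24 in the other on chromosome 15 (chr15:101347444-102032027).

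Bulk RNA was sequenced from retina and choroid dissected together, in 22 libraries of 6 groups. In this model of age-related macular degeneration, laser burns to the back of the eye make vessels of the choroid grow toward the retina, which is called choroidal neovascularisation (CNV). The wild-type table held 4 libraries from adult C57BL/6J controls and 4 from each of 3 laser groups of that strain, taken at day 3, at day 7 or at day 14. The second table held 3 libraries from Rag2-/-γc-/- mice, which lack T, B and NK cells (Rag2 gc KO below), and 3 from Rag2-/- mice, which lack T and B cells (Rag2 KO). All 6 of these came from lasered mice at day 3, so this set had no unlasered control, and the knockouts are carried by every cell of the animal. The title of control replicate 4 says no CNV while its treatment tag says laser. It was kept as a control, and values without it are given where they differ.

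The wild-type libraries held 15033983 to 16848254 counts and the Rag2 libraries 27227847 to 30315086. Rod photoreceptor genes took 1.33% to 6.63% of the counts in wild-type libraries, and retinal pigment epithelium genes took 0.171% to 0.391%, with no gene of either list at 0, as the tissue label says. Lens genes took 0.0109% to 14.7%. Whether libraries came from separate animals is not stated. P-values below therefore measure the spread between these samples, which may be partly technical.

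Keratins are the intermediate filament proteins of epithelia. A type I keratin, encoded by the chromosome 11 cluster with Krt18 as the exception on chromosome 15, pairs with a type II keratin from the chromosome 15 cluster, and filaments form only from such pairs. Which pair an epithelium makes marks its kind. Krt8 and Krt18 form the pair of simple epithelia, which include the retinal pigment epithelium, while Krt5 and Krt14 form that of the basal layer of stratified epithelia. Krt12 marks corneal epithelium, Krt4 and Krt13 line mucosae such as the conjunctiva, and Krt16 and Krt17 are induced in stratified epithelium after wounding. Neurons, glia and vessels of the retina and choroid use other intermediate filament proteins.

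Promoters are shown for 3 members that varied together between libraries, Krt5, Krt12 and Krt13, and for Krt18, whose level varied little. Each runs from 250 bases before to 50 after the start annotated by RefSeq on GRCm38.p6, written 5′ to 3′ on the gene's strand. Capitals mark a TATA box, searched as TATAAA, or TGANTCA, a loose form of the AP-1 motif in which N is any base, on either strand.
Krt5 (chr15:101712856-101713155, minus strand): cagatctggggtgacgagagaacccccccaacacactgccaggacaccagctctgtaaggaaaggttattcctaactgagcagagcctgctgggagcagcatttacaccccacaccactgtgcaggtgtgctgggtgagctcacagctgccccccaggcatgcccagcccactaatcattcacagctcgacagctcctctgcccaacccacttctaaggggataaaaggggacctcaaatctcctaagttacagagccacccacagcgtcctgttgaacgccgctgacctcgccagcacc
Krt12 (chr11:99422210-99422509, minus strand): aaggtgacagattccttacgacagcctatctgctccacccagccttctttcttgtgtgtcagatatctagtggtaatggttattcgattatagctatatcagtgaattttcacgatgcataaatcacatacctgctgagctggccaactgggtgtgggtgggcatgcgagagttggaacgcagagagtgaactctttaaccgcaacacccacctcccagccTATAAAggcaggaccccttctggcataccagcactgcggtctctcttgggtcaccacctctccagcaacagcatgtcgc
Krt13 (chr11:100121517-100121816, minus strand): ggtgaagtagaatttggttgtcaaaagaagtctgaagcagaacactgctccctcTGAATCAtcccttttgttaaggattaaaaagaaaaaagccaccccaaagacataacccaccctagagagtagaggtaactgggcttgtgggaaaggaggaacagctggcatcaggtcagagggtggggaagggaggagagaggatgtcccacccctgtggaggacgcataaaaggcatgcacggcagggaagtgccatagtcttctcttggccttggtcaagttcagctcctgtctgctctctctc
Krt18 (chr15:102027966-102028265, plus strand): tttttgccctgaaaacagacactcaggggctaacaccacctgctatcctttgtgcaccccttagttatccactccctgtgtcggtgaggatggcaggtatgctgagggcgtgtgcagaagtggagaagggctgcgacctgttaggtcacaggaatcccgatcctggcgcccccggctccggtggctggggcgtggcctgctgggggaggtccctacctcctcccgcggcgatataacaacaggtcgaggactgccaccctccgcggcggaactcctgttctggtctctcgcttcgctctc
The Krt12 window held TATAAA and the Krt13 window held TGANTCA, whereas the Krt5 and Krt18 windows held neither, nor the GC box GGGCGG. Of the 49 members, 35 had a promoter in the RefSeq table and 32 had one within 100 bases of the deposited gene start. Among these 32 windows, TATAAA occurred in 17, against 13.6% of 32851 promoters of the same length. TGANTCA occurred in 1, that of Krt13, where N was A, against 7.81% of promoters. GGGCGG occurred in 1, that of Krt75, against 35.7%. Another Krt13 window, 989 bases from the deposited gene start and so not among the 32, held 2 matches of TGANTCA, both TGACTCA. The 3 motifs share no letters in a way that makes 1 a part of another, and a match only describes the letters in the window.

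Keratin transcripts took a share of the wild-type libraries that varied widely within groups and was far smaller in the Rag2 set. The 49 members together took 0.570%, 0.370%, 0.332% and 0.210% of all counts in the 4 controls, 1.13%, 0.693%, 2.90% and 0.427% at day 3, 1.97%, 1.67%, 0.613% and 0.435% at day 7, and 1.30%, 0.475%, 1.08% and 0.458% at day 14. The highest single share, in day 3 replicate 3, had a 95% Wilson interval of 2.887% to 2.903%, so counting error was small beside the differences between libraries. Such intervals cover counting error only. The group means of the keratin share were 0.370% ± 0.149 for controls, 1.29% ± 1.11 for day 3, 1.17% ± 0.762 for day 7 and 0.828% ± 0.427 for day 14 (± is the SD of 4 libraries). Each laser group overlapped the controls. Without day 3 replicate 3 the day 3 mean was 0.750%, and without control replicate 4 the control mean was 0.424%. In bulk RNA, fewer cells of a type and less RNA per cell cannot be told apart.

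**Figure D1:**
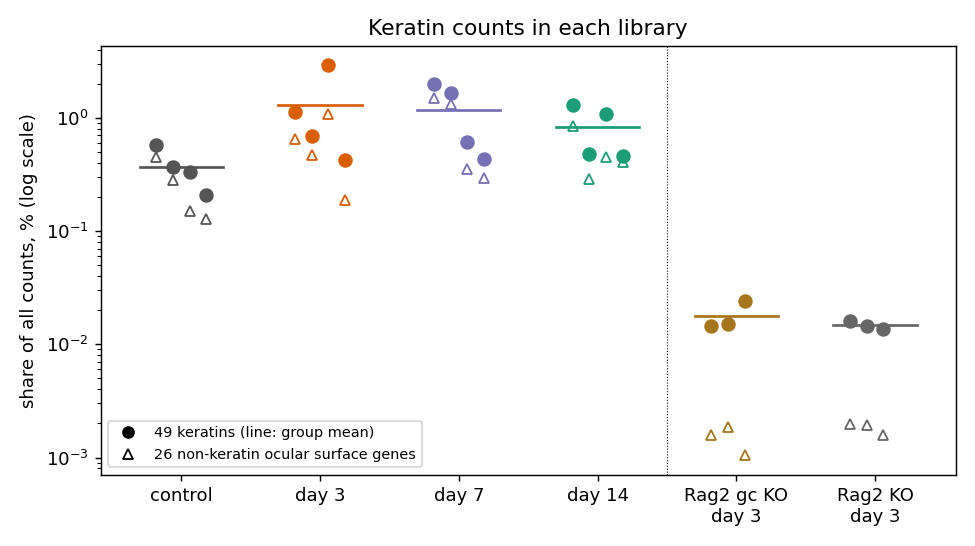
Share of all counts (%, log axis) taken by the 49 keratins (filled circles, line at the group mean) and by 26 non-keratin genes of ocular surface epithelium (open triangles) in each library, with the 2 separately counted tables divided by a dotted line. Wild-type keratin shares run from 0.210% to 2.90% and move with the triangles, while the 6 Rag2 libraries lie between 0.0137% and 0.0241%.

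In the Rag2 set the keratins took 0.0145%, 0.0150% and 0.0241% of counts in Rag2 gc KO libraries, against 0.0160%, 0.0146% and 0.0137% in Rag2 KO libraries. Rag2 gc KO replicate 3 stood above the rest, and the groups overlapped. The means were 0.0179% ± 0.00540 in Rag2 gc KO and 0.0148% ± 0.00116 in Rag2 KO (SD, n = 3 each). The make-up of the counts differed as well: Krt18 took 58.7% to 64.0% of the keratin counts in the 6 Rag2 libraries and 0.305% to 3.80% in the 16 wild-type libraries. Krt5 took 25.4% to 44.7% of keratin counts in the wild type and at most 0.823% in the Rag2 set. No test was made across the tables, since genotype, sequencing depth and table cannot be told apart.

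**Figure D2:**
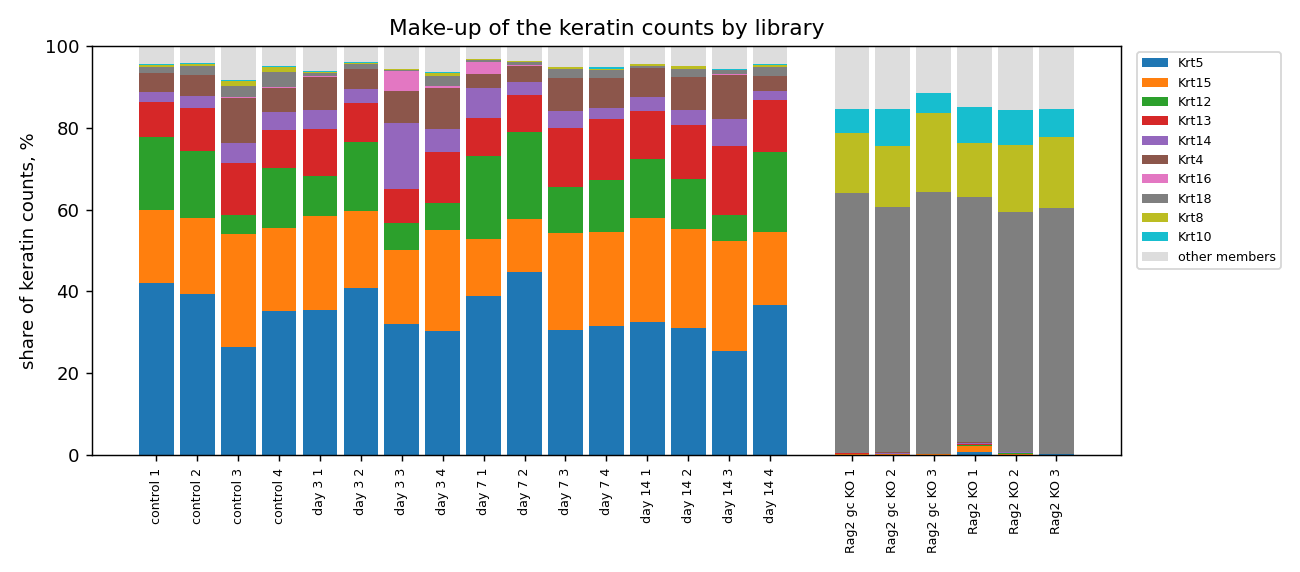
Make-up of the keratin counts in each library (bars, % of the library's keratin counts, summing to 100), with wild-type libraries at the left and the Rag2 set at the right. Krt5, Krt15, Krt12 and Krt13 fill most of each wild-type bar. Krt12 is larger than Krt15 in day 7 replicates 1 and 2 and day 14 replicate 4. In control replicate 1 it is barely so (16417 against 16368 counts). Krt14 and Krt16 widen in day 3 replicate 3, and Krt18 and Krt8 fill most of each Rag2 bar.

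Levels per gene length, as deposited FPKM (fragment counts scaled by gene length and library size), place the stratified keratins first in wild-type controls. Krt5 had 613.5 ± 339.4 FPKM, Krt15 had 425.3 ± 150.6, Krt12 had 276.3 ± 201.6 and Krt13 had 202.5 ± 69.9 in controls (SD, n = 4). Neighbours in this order differed by less than the larger of their SDs. Krt4 followed at 109.7 ± 49.8 FPKM, Krt14 at 70.4 ± 20.3 and Krt18 at 57.6 ± 6.55. In the Rag2 set Krt18 led, with 78.0 ± 24.8 FPKM in Rag2 gc KO and 60.9 ± 5.52 in Rag2 KO (SD, n = 3), a level per length near that of wild-type controls in the separately scaled table. Type I members summed to 1.51 ± 0.225 times the FPKM of type II members in controls, to 1.57 ± 0.200 times in day 3 libraries, to 1.57 ± 0.271 times in day 7 libraries and to 1.78 ± 0.147 times in day 14 libraries (± is the SD of 4 libraries). The same ratio was 5.30 ± 0.804 in Rag2 gc KO and 5.45 ± 0.633 in Rag2 KO (SD, n = 3). These ratios depend on the naming rule. It leaves out the type II genes Krt6a and Krt6b, which averaged 211.9 and 324.5 CPM in wild-type controls. With them the wild-type ratios would be lower. In the Rag2 set the keratins with a letter suffix summed to at most 0.594 CPM.

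Changes after the laser were tested on counts with the quasi-likelihood test of edgeR, with Benjamini-Hochberg adjustment over all genes tested and a call at an adjusted p under 0.05. Values per library below are CPM, counts scaled to a common library size with TMM factors. Of the 49 keratins, 20 passed the filter on low counts in the wild-type table. At day 3, 7 of these rose against control and 0 fell, while 6.97% of all 18657 genes tested were called higher and 7.77% lower. At day 7, 1 keratin rose, with 3.62% of all genes called higher and 6.90% lower, and at day 14 no keratin was called, with 0.0322% of all genes called higher and 0.241% lower (0.273% in all; at day 7, 10.5%). The keratins' median log2 fold change was 1.73 for day 3, 1.22 for day 7 and 0.96 for day 14, against 0.01, 0.03 and 0.04 for all genes tested. Members enter this median only by passing the filter, which a high laser group can bring about, so nothing is read from it about the whole family. The 3 comparisons share the same controls.

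The day 3 calls were Krt14, Krt16, Krt17, Krt4, Krt13, Krt75 and Krt1, and each depended on which libraries were included. No keratin was called without any 1 of the 4 controls, control replicate 4 included, or without day 3 replicate 3. The count was 2 without day 3 replicate 1, 3 without day 3 replicate 4 and 8 without day 3 replicate 2. The share of all genes called also dropped in these runs, to 1.54% without control replicate 3 and to 2.45% without day 3 replicate 3, against 14.7% with all libraries. DESeq2 called 12 of the 20 keratins at day 3, against 25.7% of all genes, and limma voom called 1, against 13.2%. At day 7 DESeq2 called 7 keratins, against 20.2% of all genes, and limma voom called 0, against 10.8%, while 12 had an unadjusted p under 0.05 in edgeR, against 32.1%.

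**Figure D3:**
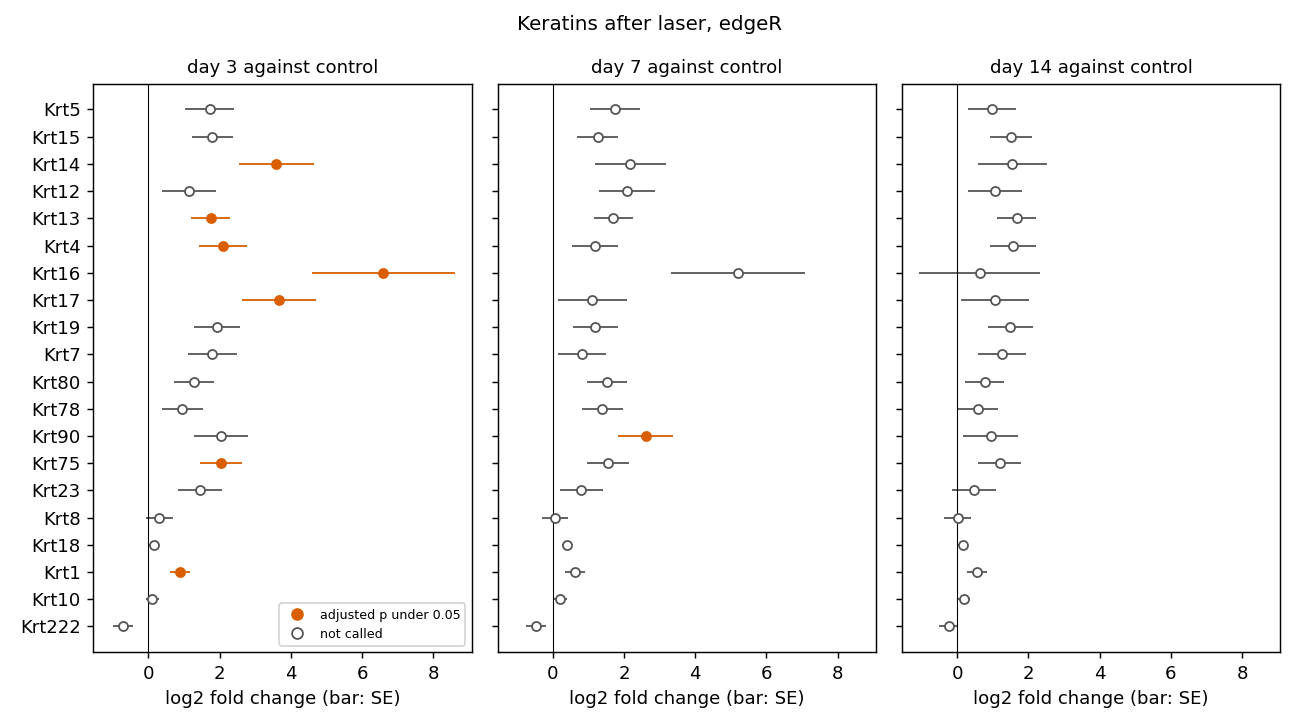
Log2 fold change of the 20 tested keratins against control at day 3, day 7 and day 14 (points, with bars for the SE of the edgeR fit); filled orange points have an adjusted p under 0.05. Points lie right of 0 for 19 of 20 members at each day, 7 are filled at day 3, 1 at day 7 and none at day 14, and Krt16 has the widest bars.

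Among basal-layer keratins, Krt14 rose at day 3, and Krt5 and Krt15 were higher on average without passing the test. Krt5, the type II partner of Krt14 (chr15:101707070-101712898), had 2397, 1455, 876 and 719 CPM in controls, 3960.4, 2818, 9842 and 1294 CPM at day 3, 7517, 7683, 1824 and 1289 CPM at day 7, and 4984, 1434, 2674 and 1644 CPM at day 14. Day 3 replicate 3 and day 7 replicates 1 and 2 were high, and every laser group had at least 1 library within the control range. Its log2 fold change was 1.72 ± 0.693 at day 3 (model SE, edgeR adjusted p = 0.0922), 1.75 ± 0.694 at day 7 (adjusted p = 0.103) and 0.98 ± 0.681 at day 14 (adjusted p = 0.368).

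Krt14, the type I partner of the basal pair (chr11:100203162-100207548), had 143, 106, 164 and 86.2 CPM in controls, 521, 232, 5013 and 245 CPM at day 3, 1394, 507, 244 and 111 CPM at day 7, and 524, 168, 674 and 94.3 CPM at day 14. All 4 day 3 libraries lay above all controls, and day 3 replicate 3 lay far above the other 3. The log2 fold change was 3.59 ± 1.06 at day 3 (model SE, edgeR adjusted p = 0.0388), and 1.42 ± 0.742 without day 3 replicate 3 (adjusted p = 0.246). It was 2.18 at day 7 (adjusted p = 0.147), or 1.20 without day 7 replicate 1, and 1.55 at day 14 (adjusted p = 0.324). Krt15, a keratin of basal cells that also marks the corneal limbus, averaged 2625 ± 2078 CPM at day 3 and 757 ± 266 CPM in controls (SD, n = 4 each), with no overlap between the groups but an adjusted p of 0.0511 in edgeR. Of all genes tested, 17.4% were higher at day 3 with no overlap, and 7 of the 20 keratins were.

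Krt12, the keratin of corneal epithelium (chr11:99415666-99422259), did not pass the test at any day. It had 1015, 598, 155 and 303 CPM in controls, 1113, 1163, 2022 and 284 CPM at day 3, 3935, 3681, 666 and 516 CPM at day 7, and 2213, 570, 667 and 881 CPM at day 14. Day 7 replicates 1 and 2 were the highest and every laser group overlapped the controls. The log2 fold change was 1.15 ± 0.756 at day 3 (model SE, edgeR adjusted p = 0.271), 2.09 ± 0.777 at day 7 (adjusted p = 0.0867) and 1.06 ± 0.755 at day 14 (adjusted p = 0.377). At day 7 it passed the test in 1 of 11 processing alternatives, over which the adjusted p ran from 0.0229 to 0.22, and in 1 of 8 runs that left out 1 library, with 0.0479 to 0.236.

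Both keratins of the mucosal pair, Krt4 (type II) and Krt13 (type I), rose at day 3. Krt13 (chr11:100117327-100121566) had 1274, 662, 2536 and 526 CPM at day 3, against 485, 389, 422 and 190.4 CPM in controls. The groups did not overlap. Its log2 fold change was 1.75 ± 0.547 (model SE, edgeR adjusted p = 0.0458). At day 7 Krt13 had 605 to 1810 CPM and at day 14 it had 567 to 1787 CPM, all above the controls, but the adjusted p was 0.0574 at day 7 and 0.104 at day 14. Krt13 was the 1 keratin higher without overlap at day 7, against 11.3% of all genes, and 1 of 2, with Krt75, at day 14, against 6.76%. In the lower direction 1 keratin (Krt222) was apart at day 7 and 0 at day 14, against 18.4% and 12.8% of all genes. Krt4 had 897, 328, 2378 and 420.1 CPM at day 3, against 261, 192, 367 and 121 CPM in controls, a log2 fold change of 2.10 ± 0.666 (adjusted p = 0.0478). Its day 3 replicate 2 lay within the control range.

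The wound keratins Krt16 and Krt17 had the largest fitted day 3 changes, and most of their day 3 counts came from replicate 3. Krt16 (chr11:100246091-100248902) had 5.01, 2.56, 4.07 and 4.48 CPM in controls, 13.6, 7.79, 1516 and 27.5 CPM at day 3, 561, 22.4, 7.05 and 2.64 CPM at day 7, and 4.55, 4.22, 14.6 and 1.56 CPM at day 14. All 4 day 3 libraries lay above all controls, while at day 7 and day 14 the groups overlapped. The log2 fold change at day 3 was 6.60 ± 2.0 (model SE, edgeR adjusted p = 0.0423) with all libraries and 2.02 ± 1.33 without day 3 replicate 3 (adjusted p = 0.346). At day 7 it was 5.20 ± 1.89 (adjusted p = 0.0813), or 1.40 without day 7 replicate 1 (adjusted p = 0.58), and at day 14 it was 0.63 ± 1.70, which did not pass the test.

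Krt17 had 63.1, 27.4, 672 and 32.9 CPM at day 3, against 17.7, 8.26, 24.2 and 12.5 CPM in controls. Its log2 fold change was 3.66 ± 1.05 (model SE, edgeR adjusted p = 0.0355), and 1.39 ± 0.705 without day 3 replicate 3 (adjusted p = 0.233). Counts of Krt14, Krt16 and Krt17 are partly uncertain, since these genes share stretches of sequence. Of the 50-base stretches of its transcripts, Krt16 shared 37.6% with Krt14, Krt17 or Gm11597, Krt14 shared 14.4% with Krt16 or Krt17, and Krt17 shared 3.99%. Krt4, Krt12, Krt13 and Krt19 shared 0%. How reads with several matches were counted is not given in the sources used here.

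Neither member of the simple-epithelium pair passed the test at any day, and Krt18 varied less between libraries than Krt8. Krt18 (chr15:102028180-102032027) had 82.2, 77.6, 96.1 and 77.9 CPM in controls, 89.9, 82.9, 93.8 and 105.5 CPM at day 3, 101, 133, 121 and 81.2 CPM at day 7, and 84.3, 95.1, 93.3 and 99.0 CPM at day 14. The log2 fold change was 0.16 ± 0.135 at day 3 (model SE, edgeR adjusted p = 0.402), 0.39 ± 0.135 at day 7 (adjusted p = 0.075) and 0.16 ± 0.135 at day 14 (adjusted p = 0.469). Krt8, its type II partner (chr15:101996698-102004482), had 11.6 to 49.1 CPM over the 16 libraries, with a log2 fold change of 0.31 ± 0.368 at day 3 (adjusted p = 0.55). Krt8 shared 26.9% of its 50-base stretches with the pseudogene Krt8-ps, so its count is uncertain in part. Krt19 and Krt7, simple keratins that the conjunctiva also makes, had log2 fold changes of 1.93 (adjusted p = 0.0541) and 1.79 (adjusted p = 0.0794) at day 3 in edgeR.

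**Figure D4:**
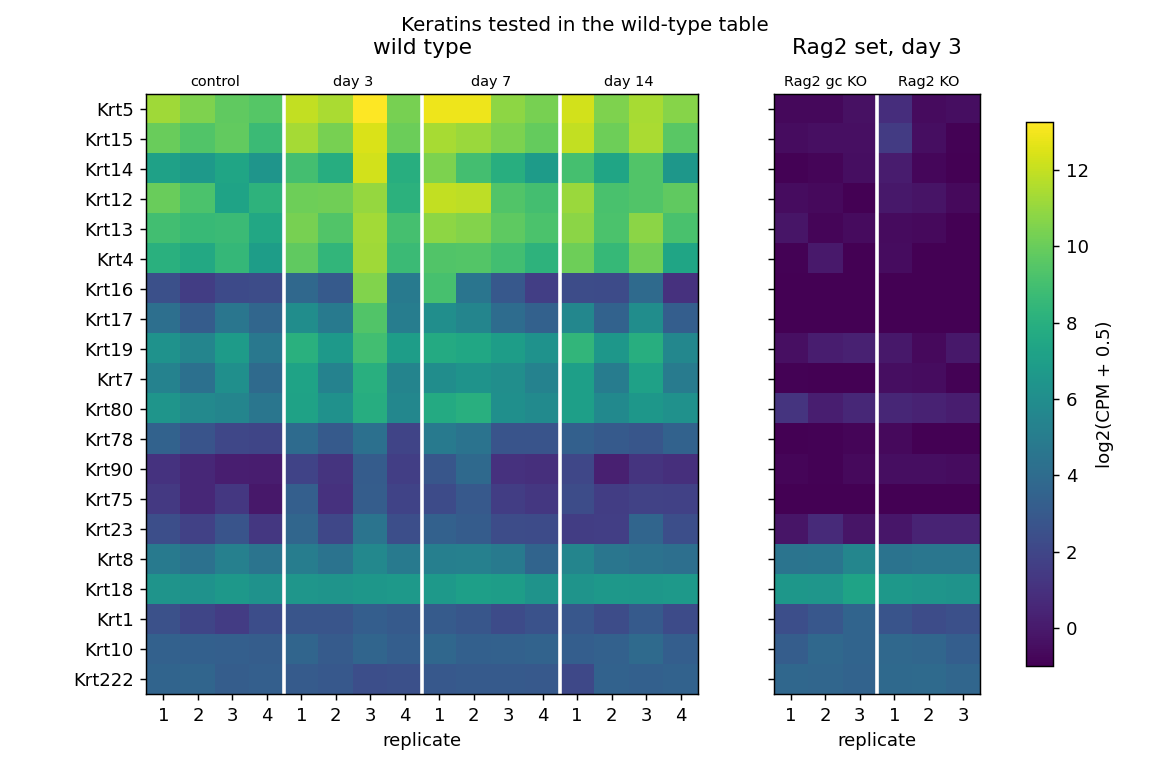
Level of the 20 keratins tested in the wild-type table, as log2(CPM + 0.5), in 16 wild-type libraries (left) and 6 Rag2 libraries (right), with each column a library; the tables were scaled separately. Rows from Krt5 to Krt19 brighten together in day 3 replicate 3 and day 7 replicates 1 and 2, Krt8, Krt18, Krt1, Krt10 and Krt222 stay at a similar shade in both tables, and Krt16 and Krt17 are at 0 in the Rag2 set.

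The epidermal pair was low. Krt1, a suprabasal keratin of skin, had 6.37, 6.40, 9.01 and 7.73 CPM at day 3, against 5.38, 3.48, 2.35 and 4.61 CPM in controls. These groups did not overlap, and the log2 fold change was 0.90 ± 0.278 (model SE, edgeR adjusted p = 0.0449). Its partner Krt10 had 8.15 to 14.6 CPM over the 16 libraries and a log2 fold change of 0.11 ± 0.184 at day 3 (adjusted p = 0.664). Of the hair-follicle keratins, 1 of 21 members passed the filter. This was Krt75, with 9.37, 1.51, 8.68 and 3.15 CPM at day 3, against 2.04, 0.984, 2.03 and 0.455 CPM in controls, a log2 fold change of 2.03 ± 0.592 (adjusted p = 0.0375). Day 3 replicate 2 lay within the control range.

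Krt90, in the chromosome 15 cluster, was the 1 keratin called at day 7. It had 6.51, 14.0, 1.54 and 1.41 CPM at day 7, against 1.61, 0.984, 0.635 and 0.585 CPM in controls, with 2 of the 4 day 7 libraries within the control range. The log2 fold change was 2.61 ± 0.764 (model SE, edgeR adjusted p = 0.0439), and 1.75 without day 7 replicate 2 (adjusted p = 0.162). The call was also lost without day 7 replicate 1 (adjusted p = 0.106) and without each control in turn (adjusted p from 0.0667 to 0.121). Krt222, in the chromosome 11 cluster, was the 1 tested member with a negative fold change. It had 8.20, 7.24, 4.97 and 4.99 CPM at day 3, against 11.6, 11.9, 8.89 and 9.36 CPM in controls. Those groups did not overlap, as for 22.8% of all genes in that direction, and the log2 fold change was -0.72 ± 0.275 (adjusted p = 0.0798). The other tested members, Krt23, Krt78 and Krt80, had log2 fold changes of 1.44, 0.95 and 1.28 at day 3, with adjusted p values of 0.106, 0.228 and 0.111.

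Members that did not pass the filter were near the limit of detection. In the wild-type table Krt73 had 0 counts in all 16 libraries, and the highest untested member, Krt24, had 111 counts over all of them. No keratin was called for day 7 or day 14 against day 3, and day 14 was not tested against day 7. For day 7 against day 3, edgeR called 0 of 20 keratins, as did DESeq2 and limma voom, and 1 keratin had an unadjusted p under 0.05. Of all genes edgeR and limma voom called 0.0%, DESeq2 called 0.338%, and 6.13% had an unadjusted p under 0.05. For day 14 against day 3 all of these tools called 0, and 2 keratins had an unadjusted p under 0.05, while 0.00536% of all genes were called by edgeR, 0.616% by DESeq2 and 0.0161% by limma voom, and 6.77% had an unadjusted p under 0.05. At day 14 against control edgeR and limma voom called 0 keratins, DESeq2 called 1, and 4 had an unadjusted p under 0.05. The shares of all genes there were 0.541% by limma voom, 9.53% by DESeq2 and 24.8% at an unadjusted p under 0.05. A call at day 3 and none at day 14 is therefore not shown to be a difference between those days.

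The authors' deposited table of comparisons, whose tool is not given in the sources used here, has more keratins at an adjusted p under 0.05. Of 40 keratins with a day 3 value in the authors' deposited table, 12 were higher and 1 lower. Its day 7 columns have 10 higher and 1 lower of 43 in the authors' deposited table, and its day 14 columns 2 higher and 0 lower of 39. Over all genes the authors' deposited table has 26.4%, 18.8% and 3.65% at that threshold for the same days. In the authors' deposited table Krt5 has a log2 fold change of 1.75 (adjusted p = 0.0467) at day 3, and Krt14, Krt16 and Krt17 have 3.62, 6.63 and 3.69 with an adjusted p of 1.0. That p-value is also given at day 3 for members with few counts, Krt9 and Krt25 among them, so it may stand for a missing value. The fold changes of the 2 sources were close for Krt5, Krt14, Krt16 and Krt17. The p-values of Krt14, Krt16 and Krt17 were not compared.

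Across the 16 wild-type libraries, the stratified keratins went up and down together, and with them other genes of ocular surface epithelium. With 25 relations computed on log2(CPM + 0.5) and permutation p-values adjusted over them, Krt12 followed Krt5 at a Pearson r of 0.925 (permutation p = 2e-05, adjusted p = 6.25e-05) and a Spearman rho of 0.947 (adjusted p = 8.33e-05, n = 16). Without the 2 libraries farthest from the median of Krt5, day 3 replicate 3 and day 7 replicate 2, r was 0.928, and within groups it was 0.927 (adjusted permutation p = 0.00105). Krt13 had an r of 0.897 and a rho of 0.856 with Krt5, and 0.890 within groups (adjusted permutation p = 0.00075). Krt14 had an r of 0.857 and a rho of 0.779 with Krt5, and 0.815 within groups (adjusted permutation p = 0.00487). Krt16 had an r of 0.719 and a rho of 0.662 with Krt5, with 0.665 within groups, which missed the threshold there (adjusted permutation p = 0.0558). Krt18 had an r of 0.322 and a rho of 0.271 with Krt5 (adjusted permutation p = 0.245 and 0.353), and 0.0992 without the 2 farthest libraries. These values share libraries and scaling factors.

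**Figure D5:**
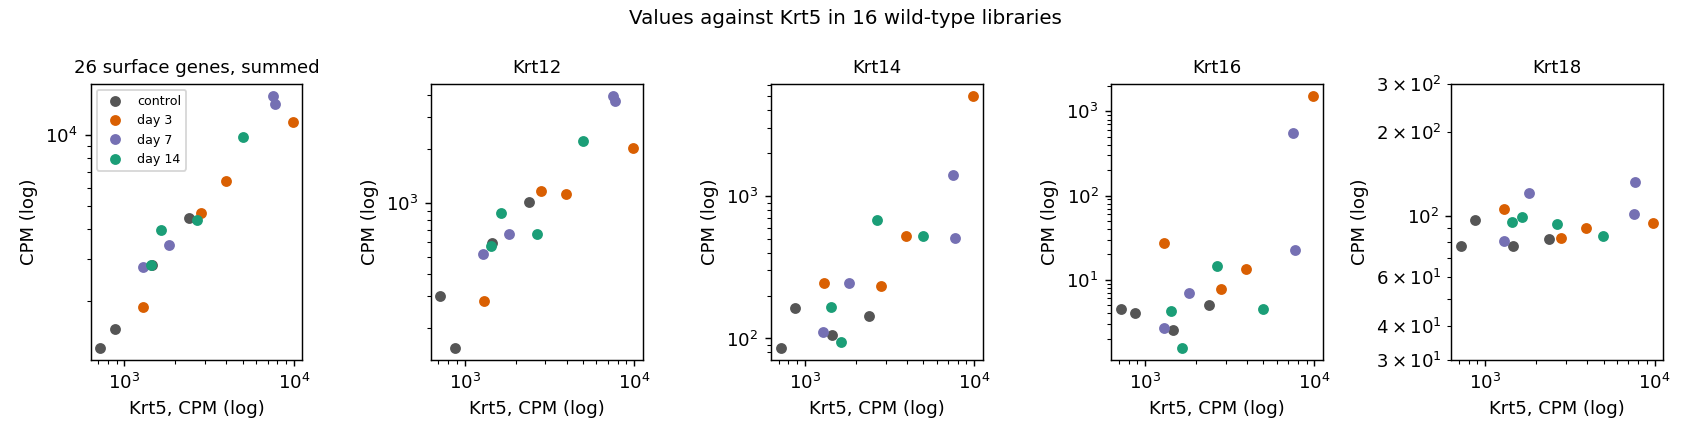
Krt5 (x axis, CPM, log scale) against the summed CPM of 26 non-keratin ocular surface genes and the CPM of Krt12, Krt14, Krt16 and Krt18 (y axes, log scale), 1 point for each of 16 wild-type libraries. The surface genes and Krt12 follow Krt5 (r of 0.978 and 0.925 on the log2 scale), Krt16 is spread widely around it, and Krt18 stays between 77.6 and 133 CPM.

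Among 10 stratified and conjunctival members (Krt4, Krt5, Krt7, Krt12 to Krt17 and Krt19) the 45 pairwise r values ran from 0.45 to 0.983, with a median of 0.857, and the highest was that of Krt4 with Krt19. Krt18 had r values of -0.148 to 0.516 with the other 19 tested members. The ratio of Krt12, the corneal keratin, to Krt13, the conjunctival one, ranged from 0.367 to 2.36 over the 16 libraries. It averaged 1.40 ± 0.730 in controls, 0.993 ± 0.531 in day 3 libraries, 1.54 ± 0.842 in day 7 libraries and 1.03 ± 0.5 in day 14 libraries (± is the SD of 4), so that libraries of every group differed in it more than the group means did.

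The 10 genes outside the family with the highest r with Krt5 over 16 libraries included Lypd3, Pkp3, Aqp3, Cldn4, Psapl1, Trim29, Spint1 and Bnipl, with r of 0.9945 for Lypd3 down to 0.987 for Bnipl. Lypd3 and Cldn4 also stand in the list of 26 ocular surface genes, and Pkp3, a plakophilin of desmosomes, in the desmosome list. These genes were picked for this likeness, so the values describe them and are no test.

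The list of 26 ocular surface genes other than keratins had an r of 0.978 and a rho of 0.976 with Krt5 over 16 libraries (adjusted permutation p = 5e-05 and 8.33e-05), 0.982 without the 2 farthest libraries and 0.987 within groups. The list was chosen with earlier results of these data known, so its p-values are not those of an independent test. Its summed level was 1265 to 4480 CPM in controls, 1880 to 11415 CPM at day 3, 2761 to 14625 CPM at day 7 and 2816 to 9849 CPM in day 14 libraries. None of the 26 genes was at 0 in the wild-type table. Of 24 that passed the filter, 1 rose at day 3 (Fxyd3, an ion transport regulator, by 2.04 ± 0.642 on the log2 scale, adjusted p = 0.0465) and 2 rose at day 7 (Psca and Prss8). Of all genes tested, 6.97% were called higher at day 3 and 3.62% at day 7. The median log2 fold change of the 24 was 1.49 for day 3, 1.75 for day 7 and 1.24 for day 14. A list of 6 corneal stroma genes did not pass the threshold with Krt5. Its sum had an r of 0.331 and a rho of 0.256 (adjusted permutation p = 0.239 and 0.369, n = 16). The r was 0.403 without the 2 farthest libraries and 0.312 within groups. Of the 6 stroma genes, edgeR called 1 lower and 0 higher at each of day 3, day 7 and day 14. Of all genes tested, 7.77%, 6.90% and 0.241% were called lower at those days. The part of ocular surface tissue in the keratin values was not tested.

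Set against that list within each library, Krt5 stood at 0.692 ± 0.120 times its summed CPM at day 3 and 0.549 ± 0.0284 times in controls (SD, n = 4 each). A two-sided exact permutation test gave p = 0.0286, the smallest 4 against 4 allows, and 0.343 after adjustment over 12 such ratios. Krt14 stood at 0.175 ± 0.179 times the list at day 3 and 0.0615 ± 0.0349 times in controls (exact permutation p = 0.2). Krt16 stood at 0.0378 ± 0.0636 times the list at day 3 and 0.00206 ± 0.00127 times in controls (exact permutation p = 0.2). Day 3 replicate 3 was the highest for both, at 0.439 for Krt14 and 0.133 for Krt16. Day 3 replicates 1 and 2 lay within the control range for both. Krt12 stood at 0.187 ± 0.0417 times at day 3 and 0.195 ± 0.063 times in controls (exact permutation p = 1.0). The ratios for day 7 and day 14 had exact permutation p values from 0.229 to 0.914. These ratios were chosen after the values had been seen.

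Other parts of the epithelial machinery were followed by lists. Desmosomes and hemidesmosomes anchor keratin filaments to neighbouring cells and to the basement membrane. Of 14 desmosome genes tested, 0 were called by edgeR at any day, with median log2 fold changes of 1.30 for day 3 and 0.65 for day 14, and of 9 hemidesmosome genes 0 were called, with medians of 1.34 and 0.72. At an unadjusted p under 0.05 edgeR had 8 of the desmosome and 6 of the hemidesmosome genes at day 3, against 37.4% of all genes tested. For day 14 it had 1 of each, against 24.8% of all genes. Of 14 epithelial transcription factors 0 were called by edgeR, 10 had an unadjusted p under 0.05 at day 3 (37.4% of all genes did), and all 14 fold changes were positive at each day. The cornified envelope list, proteins that cross-link in the outer layers of stratified epithelium, had 3 of 8 tested genes higher at day 3 and 2 at day 7. Of all genes tested, 6.97% were called higher at day 3 and 3.62% at day 7. Just 8 of the 17 envelope genes passed the filter, which a high laser group can bring about. Nothing is read from these counts about the whole envelope list. Sprr1a, a small proline-rich envelope precursor, averaged 35.4 ± 41.0 CPM at day 3 and 0.970 ± 0.270 CPM in controls (SD, n = 4 each), with ranges of 13.1 to 96.9 and 0.715 to 1.30 CPM. Its log2 fold change was 5.17 ± 0.942 at day 3 (model SE, edgeR adjusted p = 0.00957) and 4.88 ± 0.933 at day 7 (adjusted p = 0.0109). Involucrin (Ivl) and corneodesmosin (Cdsn) rose by 3.02 and 2.30 on the log2 scale at day 3 (adjusted p = 0.0469 and 0.0466). Their control levels were low, at 0.0 to 0.557 CPM for Ivl and 0.52 to 1.64 CPM for Cdsn. Fold changes at day 3 were positive for 6 of the 8 tested envelope genes. Lor had 1.96 to 2.47 CPM at day 3 and 2.41 to 4.74 CPM in controls, and Sbsn averaged 9.85 and 9.99 CPM.

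Intermediate filament genes outside the family were followed as a list of 16, of which 4 rose and 1 fell at day 3, 1 rose at day 7 and 0 were called for day 14. Of all genes tested, 6.97% rose and 7.77% fell at day 3, 3.62% rose at day 7 and 0.273% were called for day 14. For day 14, 5 of the 16 had an unadjusted p under 0.05 in edgeR, against 24.8% of all genes. Gfap, the glial filament protein of reactive Müller cells and astrocytes, averaged 128.5 ± 64.3 CPM at day 3 and 22.6 ± 2.23 CPM in controls (SD, n = 4 each), a log2 fold change of 2.51 ± 0.364 (model SE, edgeR adjusted p = 0.00426). Vimentin (Vim) rose by 2.11 ± 0.605, nestin (Nes) by 1.91 ± 0.442 and desmin (Des), the muscle filament protein, by 1.66 ± 0.518. Nefh, the heavy neurofilament subunit, had 25.5 to 48.9 CPM at day 3 and 74.7 to 110 CPM in controls, and fell by 1.37 on the log2 scale (adjusted p = 0.0405). Skeletal muscle genes had 627 to 1399 CPM at day 3 and 271 to 750.4 CPM in controls, and their sum had an r of 0.732 and a rho of 0.691 with Krt5 (adjusted permutation p = 0.003 and 0.00821, n = 16), 0.750 without the 2 farthest libraries and 0.666 within groups. Genes of lens and pigment epithelium were also called at day 3. Of 11 rod genes, edgeR called 0 at any day against control. At day 3, 5 of these 11 had an unadjusted p under 0.05 in edgeR, against 37.4% of all genes. Of 21 lens genes, 6 rose at day 3, against 6.97% of all genes tested. All 21 fold changes were positive, with a median of 3.48 on the log2 scale. The lens list had an r of 0.0982 with Krt5 and a rho of 0.138 (adjusted permutation p = 0.717 and 0.637), 0.391 without the 2 farthest libraries and -0.206 within groups. Of 10 pigment epithelium genes, 4 fell at day 3, against 7.77% of all genes tested. The sum of the 10 had an r of -0.188 and a rho of -0.103 with Krt5 (adjusted permutation p = 0.505 and 0.706). The rod list had an r of -0.524 and a rho of -0.388 with Krt5 (adjusted permutation p = 0.0429 and 0.165), -0.625 without the 2 farthest libraries and -0.440 within groups (adjusted permutation p = 0.116). The part of muscle, lens, rods and pigment epithelium in the keratin values was not tested.

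Between the Rag2 genotypes no keratin was called. Of the 49 members, 10 passed the filter in that table, and edgeR, DESeq2 and limma voom each called 0, with 0 at an unadjusted p under 0.05 in edgeR, while 0.211% of 18923 genes were called higher and 0.254% lower (0.465% in all). No keratin was apart without overlap in either direction, against 11.5% of genes higher and 10.6% lower. DESeq2 called 3.67% and limma voom 0.428% of all genes, and 14.7% had an unadjusted p under 0.05 in edgeR. Krt18 had 93.8, 90.3 and 153 CPM in Rag2 gc KO, against 96.4, 85.6 and 81.3 CPM in Rag2 KO. Rag2 gc KO replicate 3 was high and the other libraries overlapped, with a log2 fold change of 0.36 ± 0.224 (model SE, adjusted p = 0.518), and 0.07 without that library (adjusted p = 0.798). Krt8 had 21.6, 22.7 and 46.0 CPM in Rag2 gc KO, against 21.2, 23.8 and 23.4 CPM in Rag2 KO, with a log2 fold change of 0.40 ± 0.315 (adjusted p = 0.608). Krt1 had 4.96, 6.88 and 11.6 CPM in Rag2 gc KO, against 6.07, 4.45 and 5.03 CPM in Rag2 KO (log2 fold change 0.60 ± 0.302, adjusted p = 0.406). For all 3 genes the library that stood out was again Rag2 gc KO replicate 3.

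Other members of the Rag2 set were at similar low levels in both genotypes. Krt222 had 11.2 to 13.3 CPM in Rag2 gc KO and 12.6 to 14.6 CPM in Rag2 KO, and Krt10 had 8.72 to 13.8 CPM and 9.23 to 13.8 CPM. The stratified keratins were barely counted. Krt5 had 3, 3 and 8 counts in Rag2 gc KO, against 40, 5 and 7 counts in Rag2 KO. Krt12 had 5, 4 and 0 counts in Rag2 gc KO, against 14, 10 and 4 in Rag2 KO. Krt14 had 1, 2 and 6 counts in Rag2 gc KO, against 17, 3 and 0 in Rag2 KO, and Krt16 and Krt17 had 0 in all 6 libraries. A count of 0 allows up to 3 counts, a share of 9.9e-06% to 1.1e-05% of a library. The 26 ocular surface genes summed to 10.4 to 18.6 CPM in Rag2 gc KO and 15.6 to 19.6 CPM in Rag2 KO, with Muc16 at 0. Skeletal muscle genes summed to 132 to 682 CPM in Rag2 gc KO and 94.4 to 171 CPM in Rag2 KO, and their part in the keratin values was not tested.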

How the data were processed

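Bulk RNA-seq of retina and choroid covered 16 wild-type and 6 Rag2 libraries, grouped by GEO's labels. The authors deposited raw counts per gene, made with featureCounts 1.5.0-p3 on mm10, per the submitters' processing notes. For the aligner, the annotation and the use of strand, nothing is given in the sources used here. The authors also deposited FPKM values, used for levels between genes, and, per the file headers, their own log2 fold changes and p-values, used only where named. Counts were tested with edgeR 4.0.16 in R 4.3.3: filterByExpr (minimum count 10, minimum total 15), TMM scaling, a robust quasi-likelihood fit of group means over all libraries of a table, and Benjamini-Hochberg adjustment. This kept 18657 wild-type and 18923 Rag2 genes. Each SE is the log2 fold change divided by the square root of F. DESeq2 1.42.0, limma 3.58.1, other scalings and filters and leaving out libraries were alternatives. Scripts were tested on simulated data. Correlations used 100000 permutations. No pair of libraries within a group agreed within sampling noise. Promoters were matched to members by symbol in RefSeq tables. Named genes were the 4 markers, every called member, Krt8 and Krt18, the members with the highest CPM, called members of companion lists and the 10 genes most like Krt5; the text picks from these, and some are not reported here. The members and lists were chosen with earlier results of these data known.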

Additional observations from a re-analysis of the deposited data

Results flagged for a closer look

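Of 84 groups of 4 libraries examined, 5 held a library far from the other 3, and chance alone gives about 1 in 20. Krt14 had 5013 CPM in day 3 replicate 3, against 232 to 521 CPM in the other day 3 libraries. Krt16 had 1516 CPM in day 3 replicate 3, against 7.79 to 27.5 CPM in the other day 3 libraries. Krt16 also had 561 CPM in day 7 replicate 1, against 2.64 to 22.4 CPM in the other day 7 libraries. Krt17 had 672 CPM in day 3 replicate 3, against 27.4 to 63.1 CPM in the other day 3 libraries. Krt222 had 3.75 CPM in day 14 replicate 1, against 9.97 to 10.8 CPM in the other day 14 libraries. In that library lens genes took 14.7% of counts, against 0.0899% to 2.6% in the other day 14 libraries, and rod genes 1.33%, against 5.3% to 5.9%, and their part in the Krt222 value was not tested.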

How the results depend on the processing

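The count of keratins called at day 3 (7) and day 7 (1) stayed within 1.5 times under scaling by library totals, DESeq2 size factors, a filter of at least 1 CPM and no robust estimation. It became 12 and 7, and 1 at day 14, with DESeq2's Wald test, 1 and 0 with limma voom, 0 and 0 without a filter (35043 genes tested), and 11 and 4 when the fit held just the 2 groups compared. Leaving out 3 libraries (day 3 replicate 3 with day 7 replicate 2 and with day 14 replicate 1) gave 2 and 2, and leaving out 2 (day 3 replicate 3 and day 7 replicate 1), chosen after seeing the data, gave 0 and 0. Leaving out 1 library gave 0 to 8 calls at day 3, 0 to 5 at day 7, 0 to 0 at day 14 and 0 to 1 for day 14 against day 3. Same-numbered libraries did not deviate together in every pair (correlations from -0.307 to 0.381). In groups this small these values cannot show whether the numbers mark pairs, and the main fit used no pairing. The replicate block gave 9 calls at day 3, 3 at day 7 and 0 at day 14. In the Rag2 set 0 keratins were called under every alternative run. The cause of these differences was not tested.

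Of 555 member values under alternatives, 443 kept direction and side of the threshold, 82 lost a call, 7 gained one and 23 changed sign. Sign changes concerned Krt8 at day 7 (-0.025 with limma voom, -0.068 and -0.074 without the 3 and the 2 libraries named above, -0.075 to 0.319 leaving out 1 library) and at day 14 (-0.063 with library totals, -0.058 with limma voom, -0.015 with the replicate block, -0.335 without the 3 libraries, -0.335 to 0.235 leaving out 1 library). Leaving out control replicate 2, control replicate 4 and day 7 replicate 2 gave -0.061, -0.022 and -0.056 for Krt8 at day 7, and without control replicates 2 and 4 it had -0.114 and -0.075 at day 14. Krt16 at day 14 was -0.026 with the replicate block and -0.23 to 0.952 leaving out 1 library, the lowest without day 14 replicate 3. Between day 7 and day 3, Krt14 was 0.811 and Krt16 3.544 without the 3 libraries, and leaving out 1 library gave -2.388 to 0.76 and -5.196 to 3.183, the highest without day 3 replicate 3. Between day 14 and day 3, Krt14 ran from -2.521 to 0.133 leaving out 1 library, and was 0.133 without day 3 replicate 3, alone or with day 7 replicate 1. Krt8 between the Rag2 genotypes ran from -0.041 (without Rag2 gc KO replicate 3) to 0.59. None of these passed the test. Depth limits the untested members most, since their counts over a whole table were at most 111 in the wild type and 97 in the Rag2 set.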

Other observations

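Krt6a and Krt6b, wound-associated partners of Krt16 and Krt17 whose symbols lie outside the naming rule, averaged higher at day 3 than in controls but did not pass the test. Krt6a averaged 802 ± 879 CPM at day 3 and 212 ± 94.7 CPM in controls (SD, n = 4 each), a log2 fold change of 1.92 ± 0.729 (model SE, edgeR adjusted p = 0.0781). Krt6b averaged 1032 ± 900.1 CPM at day 3 and 324 ± 154 CPM in controls, a log2 fold change of 1.67 ± 0.596 (adjusted p = 0.0657). Neither passed the test at day 7 or day 14. They shared 49.5% and 50.1% of their 50-base stretches with other genes, mostly each other, so their split is uncertain. In the Rag2 set Krt6a had 0.0 to 0.142 CPM in Rag2 gc KO and 0.0662 to 0.264 CPM in Rag2 KO.

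The ratio of Krt16 to Krt5 within a library was 0.154 in day 3 replicate 3, 0.0746 in day 7 replicate 1 and 0.0213 in day 3 replicate 4, while it ran from 0.00176 to 0.00624 in controls. Day 7 replicate 2, with a Krt5 level close to that of day 7 replicate 1, had a ratio of 0.00292.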
